A study of Oryza sativa with 4 samples.

Results

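The loci described here are those whose transcript level was at least 4-fold lower in flag leaf blades of the rice d1 mutant than in the wild type, called the reduced loci below. They were chosen from the 2 deposited expression columns alone. A locus entered if its wild-type level was at least 5 FPKM (fragments scaled by transcript length and by sequencing depth) and its d1 level was at least 4-fold under that. This gave 244 of the 35590 loci in the table, or 1.72% of the 14173 loci with at least 5 FPKM in the wild type. Another locus, on chromosome 12, that meets both limits was left out by the rule and is not described. Because the levels themselves chose the loci, every level and ratio given for them is a description of the choice. The p-values and q-values printed beside them are those of the authors' deposited table for the same contrast, so they too only describe the loci.

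The d1 plants carried the allele d1-1, a mutation of RGA1, and WT was the cultivar TC65, a japonica rice. The cultivar background of the d1 plants is not named in the labels, and the mutant is represented by 1 allele. Plants of both groups were grown singly in greenhouse pots with no treatment stated, under a 16 h day, and blades were cut where the flag leaf is widest. The labels state an age of 2 months in one place and 100 days of growth in another. Each genotype had 2 libraries of about 40000000 single-end reads, which the labels call biological replicates. The deposited table gives 1 level per genotype over both libraries, so no spread between libraries, no standard deviation and no depth per library can be given.

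As background, RGA1 encodes the alpha subunit of the heterotrimeric G protein of rice. Such proteins sit at the inner face of the plasma membrane as a complex of alpha, beta and gamma subunits. The alpha subunit switches between a GDP-bound and a GTP-bound state, and both it and the beta-gamma pair pass signals on to other proteins. Rice lacking a working alpha subunit is known as a dwarf with short, broad, upright, dark green leaves and with altered responses to gibberellin, brassinosteroid and pathogens. The flag leaf is the last leaf below the panicle and a main source of sugars for the grain.

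The table names loci only by identifiers of the rice annotation project. Of all its identifiers 1 was found in the reference gene table, and none (0) of the reduced loci was. Gene names and functions are therefore not given, 2 loci are named by identifier, and the others are called by the chromosome that their identifier carries. For the same reason RGA1 itself, and marker genes of leaf cell types, were not examined here.

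The reduced loci had a median level of 1.91 FPKM in d1 and 15.4 FPKM in WT. The lower and upper quartiles lay at 1.11 and 4.99 FPKM in d1 and at 8.03 and 40.7 FPKM in WT, so most were of modest level in the WT leaf and under 5 FPKM in d1. Over all loci with at least 5 FPKM in WT, the medians were 17.6 FPKM in d1 and 18.0 FPKM in WT, and the median log2 ratio of d1 over WT was 0.00. The median log2 ratio of the reduced loci was -2.76, a 6.79-fold lower level in d1. In tissue RNA like this, fewer cells of a type and less RNA per cell cannot be told apart.

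The reductions were of very different depth. The level in d1 was between 4-fold and 8-fold lower at 147 loci, between 8-fold and 16-fold lower at 46 loci, between 16-fold and 32-fold lower at 29 loci, and at least 32-fold lower or listed at 0 at 22 loci. In d1, 54 of the 244 were under 1 FPKM and 130 were between 1 and 5 FPKM, while 41 kept at least 10 FPKM. Levels of a few FPKM or less in d1 were thus the usual case. For comparison, 638 loci with at least 5 FPKM in WT were between 2-fold and 4-fold lower in d1, outside the limit.

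**Figure D1:**
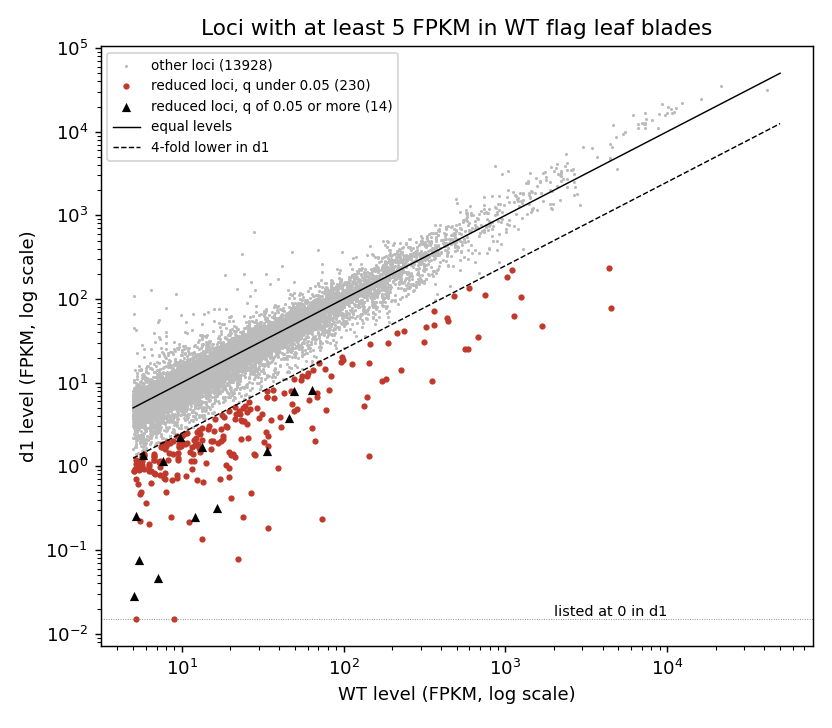
Level in d1 against level in WT, in FPKM on log axes, for loci with at least 5 FPKM in WT, each point being 1 locus with 1 value per genotype. The 230 reduced loci with a q-value under 0.05 (red) and the 14 without (black) lie on or below the dashed 4-fold line, and 2 loci listed at 0 in d1 are drawn on the dotted line.

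The limits cut through a continuous range of values. The 2 reduced loci nearest the fold limit were at 17.3 FPKM in d1 against 70.4 FPKM in WT, on chromosome 6, and at 2.31 FPKM in d1 against 9.39 FPKM in WT, on chromosome 1. The nearest loci outside it stood at 2.92 FPKM in d1 against 11.7 FPKM in WT, on chromosome 4, and at 21.8 FPKM in d1 against 86.5 FPKM in WT, on chromosome 3. Their ratios are 4.06-fold and 4.07-fold inside the limit and 3.995-fold and 3.97-fold outside it. At the WT limit, the lowest WT levels inside were 5.04 and 5.07 FPKM and the highest outside were 4.98 and 4.95 FPKM.

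A few abundant transcripts carried most of the summed WT level. Summed over the 244 loci, the level was 2531 FPKM in d1 and 27851 FPKM in WT, which is 0.183% of the sum over all loci in d1 and 2.44% in WT. The 10 loci with the highest WT level, each at 595 FPKM or more there, made up 61.5% of the reduced loci's WT sum. Without the 2 highest, the sums were 2216 FPKM in d1 and 18942 FPKM in WT.

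The most abundant of them was OS12G0247900 on chromosome 12, with 78.3 FPKM in d1 and 4534 FPKM in WT, a 57.9-fold lower level (log2 ratio -5.86). Its next locus in the identifier order is the one left out by the rule. Another chromosome 12 locus had 237 FPKM in d1 and 4376 FPKM in WT, and so kept the highest d1 level of all 244. Both were far above the rest in WT, whose levels begin at 1692 FPKM.

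Behind this pair stood 5 loci above 1000 FPKM in WT. A chromosome 8 locus had 48.2 FPKM in d1 and 1692 FPKM in WT, and a further locus of chromosome 12 had 106 FPKM in d1 and 1247 FPKM in WT. A chromosome 6 locus was read at 62.4 FPKM in d1 and 1137 FPKM in WT. The depth of the reduction differed within this top rank, as the remaining pair shows. The chromosome 10 locus had 222 FPKM in d1 and 1105 FPKM in WT, and the chromosome 9 locus had 184 FPKM in d1 and 1031 FPKM in WT, which are 4.98-fold and 5.61-fold lower levels, against 35.1-fold at the chromosome 8 locus.

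Among the 25 highest, which came from 9 chromosomes and had at least 184 FPKM in WT, the d1 level ranged between 10.6 and 237 FPKM. The lowest d1 level in this group was at a chromosome 12 locus with 10.6 FPKM in d1 and 354 FPKM in WT, a 33.5-fold lower level. The test of the authors' deposited table gave its smallest p-value, p = 5e-05 (q = 0.000186), at each of these 25 loci.

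**Figure D2:**
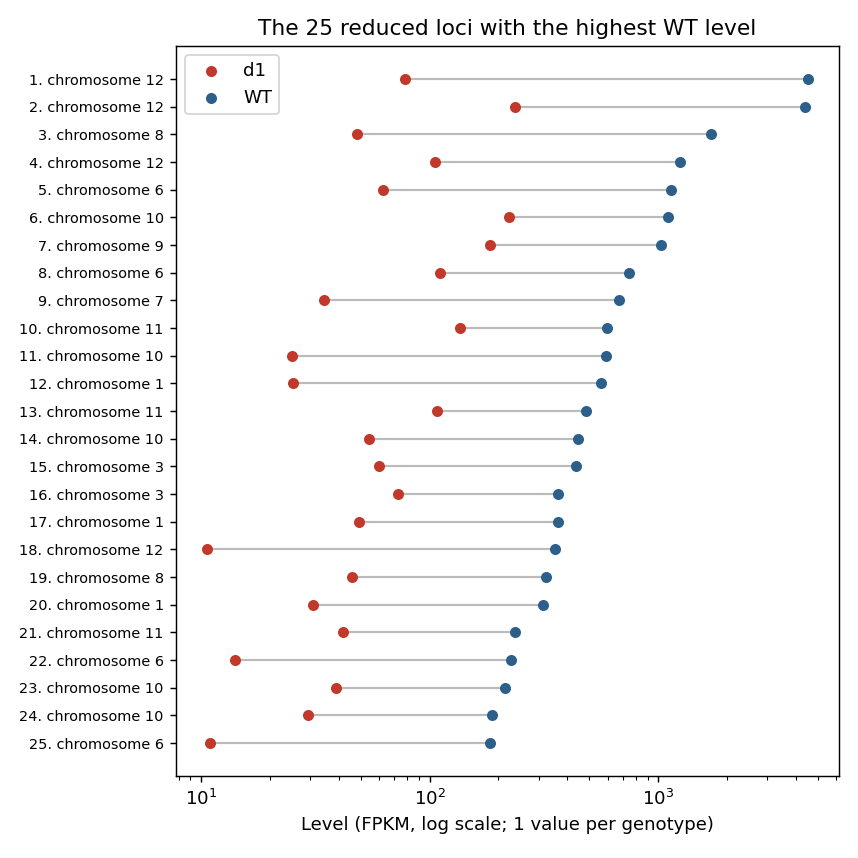
Levels in d1 (red) and WT (blue), in FPKM on a log axis, of the 25 reduced loci with the highest WT level, in falling order of WT level and labelled by chromosome. The line lengths differ, between a 4.36-fold and a 57.9-fold lower level in d1.

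Reduced loci were not evenly spread over expression levels. They were 20 of 470 loci (4.26%) with at least 300 FPKM in WT and 224 of 13703 loci (1.63%) with 5 to 300 FPKM. In finer classes of WT level the share was 2.26% between 5 and 10 FPKM (85 of 3758 loci), 1.44% between 10 and 30 FPKM, 1.38% between 30 and 100 FPKM, 1.23% between 100 and 300 FPKM, 3.90% between 300 and 1000 FPKM and 5.11% at 1000 FPKM or more (7 of 137 loci). The shares were thus highest at both ends of the range, and those of the top classes rest on 13 and 7 loci. The WT level is also part of the rule, so these shares describe the choice. The median log2 ratio of the reduced loci fell from -2.54 in the lowest class through -2.79 and -3.03 to -3.54 between 100 and 300 FPKM. It was -2.89 between 300 and 1000 FPKM, out of this order, and -4.19 in the highest class.

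The lowest ratios mostly came with low d1 levels, and not all of them passed the authors' test. Of the 25 lowest above 0 in d1, all at least 24.8-fold lower, 20 were called and 5 were not, and 6 had under 10 FPKM in WT. Abundant loci were among these 25 too: OS12G0247900 at 78.3 FPKM in d1, a chromosome 8 locus at 48.2 FPKM and a chromosome 12 locus at 10.6 FPKM. The lowest ratio among loci above 0 in d1 was at OS07G0677500 on chromosome 7, with 0.233 FPKM in d1 and 73.4 FPKM in WT, a 315-fold lower level (log2 ratio -8.30, q = 0.00175 in the authors' deposited table). This ratio rests on a d1 level near 0, and adding 1 FPKM to both genotypes gives a log2 ratio of -5.92. A chromosome 8 locus had 0.0772 FPKM in d1 and 22.2 FPKM in WT, and it lies directly beside the chromosome 8 locus of 1692 FPKM in WT described above. An adjacent pair on chromosome 2 was at 0.182 and 0.246 FPKM in d1 and at 34.2 and 23.8 FPKM in WT. Also among the lowest were a chromosome 11 locus at 0.0286 FPKM in d1 and 5.08 FPKM in WT and a chromosome 1 locus at 0.0457 FPKM in d1 and 7.15 FPKM in WT, and neither passed (q = 0.322 and q = 0.324 in the authors' deposited table). Another chromosome 11 locus had 1.34 FPKM in d1 and 145 FPKM in WT, a 108-fold lower level that becomes 62.3-fold when 1 FPKM is added to both genotypes.

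Of the 2 loci listed at 0 in d1, 1 on chromosome 8 stood at 8.97 FPKM in WT and 1 on chromosome 1 at 5.19 FPKM in WT. Both had the smallest p-value of the authors' deposited table, but neither has a test statistic beside it, so this p-value is not read as stronger support. With no read counts in the table, no fold is given for them, and a value of 0 does not show that the transcript was absent.

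In the authors' deposited table, 230 of the 244 loci had a q-value under 0.05. Over all 23672 tested rows 12.1% passed as lower, but the loci were chosen on the same contrast, so nothing is read from the difference. All 244 had been tested, and 183 of them shared the smallest p-value. The 230 made up 8.05% of all rows called lower. At a q-value under 0.01, 223 of the 244 passed (7.86% of tested rows as lower), and 224 passed when the Benjamini-Hochberg adjustment was recomputed from the p-values of the authors' deposited table (9.17% of tested rows as lower).

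The 14 loci that did not pass had WT levels up to 63.5 FPKM (median 10.97 FPKM), against a median of 15.9 FPKM among those that passed. In d1, 6 of them were under 0.5 FPKM, the lowest being the chromosome 11 locus with 0.0286 FPKM in d1 given above. The other 8 had at least 1 FPKM in d1, the highest being a chromosome 2 locus with 8.28 FPKM in d1 and 63.5 FPKM in WT (q = 0.110 in the authors' deposited table). A large ratio alone therefore did not decide the call: 7 of these 14 loci were at least 16-fold lower in d1, as were 44 of those that passed, counting values of 0.

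The position of the loci was not used in choosing them. Reduced loci lay on all 12 chromosomes, from 8 on chromosome 9 to 37 on chromosome 1. As a share of the loci with at least 5 FPKM in WT, they were most frequent on chromosome 10, with 29 of 715 loci (4.06%), followed by chromosome 11 with 2.64% and chromosome 12 with 2.33%. They were least frequent on chromosome 2, with 12 of 1737 loci (0.691%). Chromosomes other than 10 held 1.60% together.

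The other loci of chromosome 10 were near those of the other chromosomes. With the reduced loci set aside, its loci with at least 5 FPKM in WT had a median log2 ratio of 0.03. This was the highest of any chromosome, the lowest being -0.01 on chromosome 8. Of the other tested rows of chromosome 10, 11.05% were called lower in d1 in the authors' deposited table. This share ranged between 10.01% on chromosome 6 and 12.3% on chromosome 1. Of its 29 reduced loci, 17 lay in groups with another reduced locus within 5 loci. With each such group counted once, chromosome 10 held 18 groups or single loci, or 2.52% of its loci, against 2.31% on chromosome 11 and 1.32% on the other chromosomes together, chromosome 11 included. Most of the lead over chromosome 11 thus came from loci in groups. Over the other chromosomes together a lead remained, at 2.52% against 1.32% with groups counted once and 4.06% against 1.60% with each locus counted. In identifier order, the loci of chromosome 10 were cut into 3 equal stretches. The share was 3.18% in the first (5 of 157 loci), 3.24% in the middle (8 of 247) and 5.14% in the last (16 of 311). Reduced loci thus occurred in every stretch, with the largest count in the last. No test was run on these shares.

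**Figure D3:**
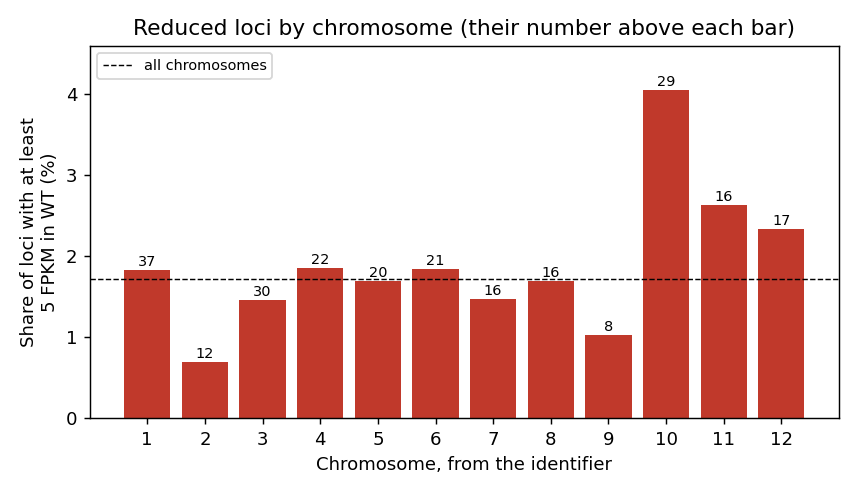
Reduced loci as a percentage of the loci with at least 5 FPKM in WT, for each of the 12 chromosomes, with the number of reduced loci above each bar and a dashed line at the 1.72% of all chromosomes. Chromosome 10 has the highest bar (4.06%) and chromosome 2 the lowest (0.691%).

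Reduced loci often lay side by side. In the order of identifiers, which follows position along a chromosome by convention, 83 of the 244 (34.0%) had another reduced locus within 5 loci. The same held for 729 of the other 13928 loci with at least 5 FPKM in WT (5.23%). Most of this came from the directly adjacent place: 68 reduced loci (27.9%) had a reduced locus next to them, against 1.09% of the other loci.

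The share of reduced loci fell off sharply with distance to the nearest other reduced locus. Among loci with at least 5 FPKM in WT whose nearest other reduced locus was the next one, 68 of 220 (30.9%) were reduced themselves. At a distance of 2 loci the share was 2.40% (4 of 167), at 3 to 5 loci 2.59% (11 of 425), and at 6 to 10 loci 0.421% (3 of 713). Beyond 10 loci it ranged between 1.00% and 1.74%. The excess was thus largest at direct neighbours, and the shares at 2 loci and at 3 to 5 loci were also above those beyond 10 loci. Each locus was counted only at its nearest reduced locus, so these shares cannot show how far groups extend.

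**Figure D4:**
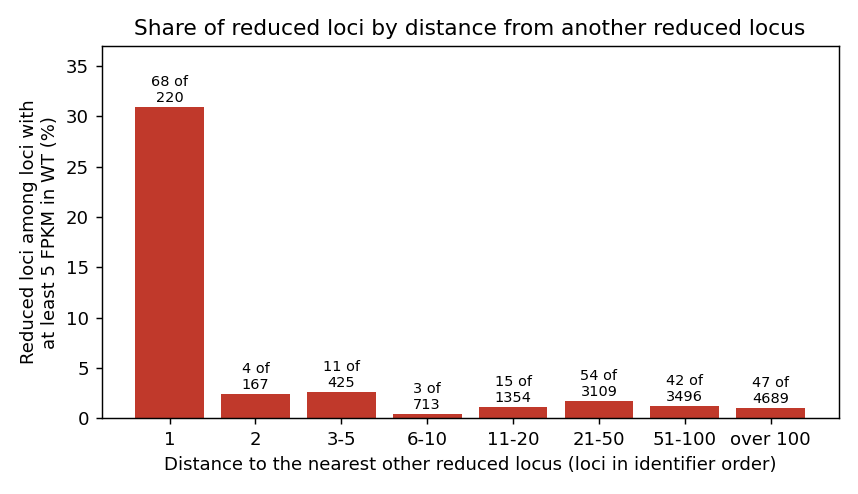
Percentage of loci with at least 5 FPKM in WT that are reduced loci, by distance to the nearest other reduced locus in the order of identifiers, with counts above the bars. The first bar (68 of 220, 30.9%) stands far above the others, which do not exceed 2.59%.

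Neighbouring loci can share reads where their transcripts overlap or run into each other, and whether the libraries kept strand is not given in the sources used here. Identifier numbers normally step by 100, and numbers in between are used for loci added later. Of 38 directly adjacent pairs of reduced loci, 19 included such an in-between number. In 11 of these 19 the WT levels of both loci were within 1.5-fold of each other, against 3 of the other 19 pairs. An example on chromosome 3 had 3.49 and 3.24 FPKM in d1 and 24.1 and 25.3 FPKM in WT. The 2 loci of such a pair may not be separate measurements, and the part that shared reads have in the neighbour counts was not tested.

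When loci with in-between numbers were left out, the neighbour counts were smaller and still above those of other loci: 51 of 211 reduced loci (24.2%) had another within 5 loci, against 5.82% of 12397 other loci. Of these 211, 34 (16.1%) had one directly next to them, against 1.23% of the others. In 10 of the 38 adjacent pairs the WT levels differed by more than 5-fold. The widest was the chromosome 8 pair, at 48.2 and 0.0772 FPKM in d1 and 1692 and 22.2 FPKM in WT.

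Loci next to a reduced locus but outside the rule also held a larger share of lower calls. Of 267 such tested loci, 70 (26.2%) were called lower in d1 in the authors' deposited table, against 12.1% of all tested rows, and 11 (4.12%) higher, against 7.24%. Their median log2 ratio was -0.28, against -0.02 over all tested rows. No WT limit was set for these 267. Loci that missed the rule only by their WT level are thus among them, such as a chromosome 10 locus at 0 FPKM in d1 and 2.45 FPKM in WT. Among the 152 neighbours with at least 5 FPKM in WT, the left-out locus included, the median log2 ratio was -0.14. Over all loci at that WT level it was -0.0008. The part of shared reads in these values was not tested either.

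In all, the reduced loci formed 161 single loci, 27 pairs and 8 larger groups when loci no more than 5 places apart were joined. The locus left out by the rule was not treated as reduced, so OS12G0247900 beside it counts as a single locus. The larger groups held 29 loci, and the longest had 5. That longest group, on chromosome 10, spanned 6 places. In order, its loci had 222, 4.995, 54.4, 1.52 and 5.50 FPKM in d1 and 1105, 29.2, 446, 33.6 and 48.0 FPKM in WT. The level of these neighbours thus differed widely in both genotypes. That each was at least 4-fold lower in d1 was set by the rule, and their log2 ratios ranged between -4.47 and -2.32. All but 1 passed the authors' test; the exception, at 1.52 FPKM in d1 and 33.6 FPKM in WT, had q = 0.0622 in the authors' deposited table. The single other locus inside the group stood at 0 FPKM in d1 and 2.45 FPKM in WT, under the WT limit.

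A second chromosome 10 group had 4 loci in direct succession, at 2.33, 1.92, 1.44 and 1.17 FPKM in d1 and 17.9, 16.7, 9.54 and 5.64 FPKM in WT. Of its 4 numbers 3 were in-between ones, and its levels lay closer together than in the group before. On chromosome 6, 4 successive loci had 0.840, 1.36, 7.44 and 2.97 FPKM in d1 and 6.76, 28.3, 69.0 and 18.9 FPKM in WT. Here 1 number was in between, and the log2 ratios ranged between -4.37 and -2.67.

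On chromosome 12, 4 loci within 6 places had 0.647, 0.719, 28.9 and 1.49 FPKM in d1 and 13.6, 9.31, 145 and 13.002 FPKM in WT, and both loci between them were under 1 FPKM in each genotype. Chromosome 3 held 2 groups of 3 successive loci. The first had 1.02, 6.77 and 0.223 FPKM in d1 and 18.8, 68.5 and 5.55 FPKM in WT. The second had 2.59, 17.9 and 0.737 FPKM in d1 and 33.1, 96.7 and 19.6 FPKM in WT. In both, the middle locus had the highest level in either genotype and the smallest reduction. A group on chromosome 1 was low throughout, at 1.00, 1.04 and 1.21 FPKM in d1 and 6.32, 5.69 and 6.78 FPKM in WT.

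The chromosome 7 group contained OS07G0677500, the locus with the lowest ratio above 0. The other reduced loci of the group stood at 1.19 and 34.7 FPKM in d1 and at 9.48 and 676 FPKM in WT. Unlike the other groups, it held a well-expressed locus that was not lower in d1: directly before OS07G0677500 lay a locus at 29.6 FPKM in d1 and 21.7 FPKM in WT (q = 0.0617 in the authors' deposited table), which did not pass.

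**Figure D5:**
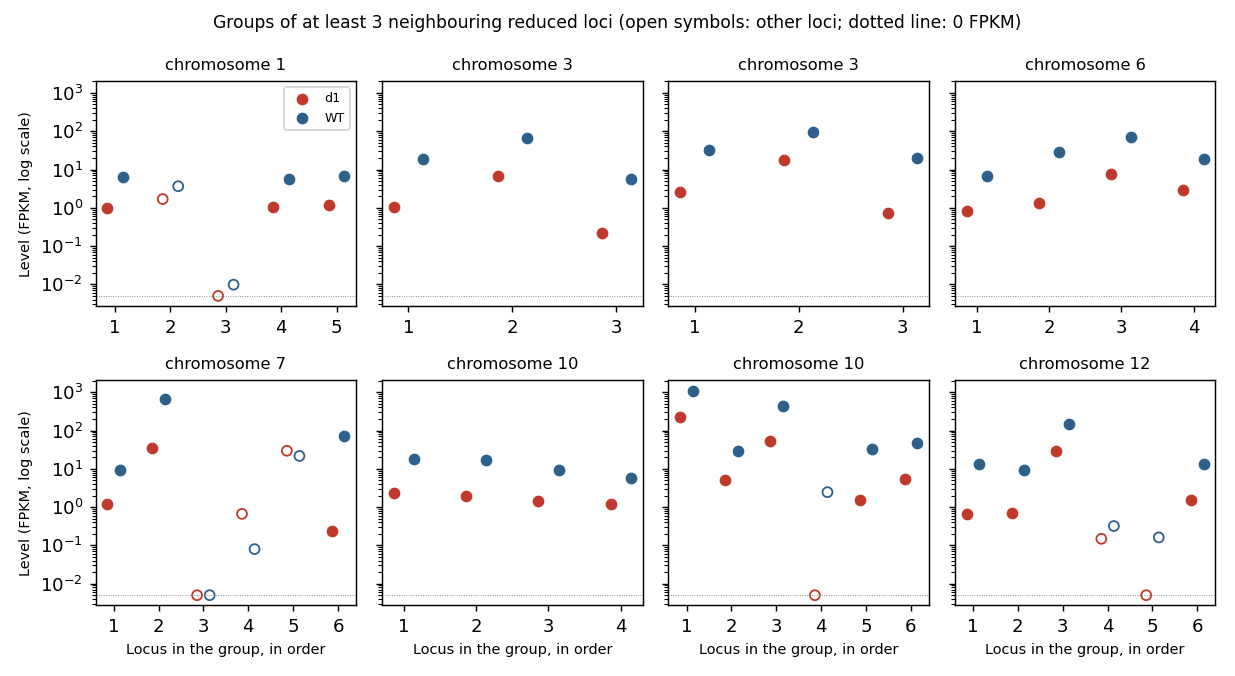
Levels in d1 (red) and WT (blue), in FPKM on a log axis, of the loci in the 8 groups of at least 3 neighbouring reduced loci, in order along the chromosome, with open symbols for loci between them that are not reduced loci. The chromosome 7 panel holds the open pair at 29.6 FPKM in d1 and 21.7 FPKM in WT beside the lowest ratio.

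The same limits were turned round to set the reduced loci beside the opposite change. At least 4-fold higher levels in d1, with at least 5 FPKM there, were found at 107 loci, or 0.776% of the 13792 loci with at least 5 FPKM in d1. With both FPKM sums set equal, the counts were 312 lower and 76 higher, so reduced loci were the larger set on either scale. The higher loci had a median of 18.6 FPKM in d1 and 2.26 FPKM in WT, and 1 of them exceeded 1000 FPKM in d1, while 7 reduced loci exceeded it in WT. They too had close neighbours of their own kind, at 37 of 107 loci (34.6%), against 2.31% of other loci with at least 5 FPKM in d1. Of the 107, 2 (1.87%) lay within 5 loci of a reduced locus and 0 directly beside one, where the shares over other loci with at least 5 FPKM in WT were 5.23% and 1.09%. That base was set on the WT level, while the higher loci were chosen on their d1 level. For this reason, and on so few loci, nothing is read from these shares. No test of a difference between both sets was run.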

How the data were processed

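RNA of flag leaf blades was sequenced from 2 d1 and 2 WT libraries. The submitters' processing notes name the build IRGSP-1.0 and, as tools, Cuffdiff, Cufflinks, TopHat2, Trimmomatic and FastQC. Their versions and parameters, the annotation and the scaling between libraries are not given. The deposited FPKM levels, 1 for each genotype, combine its libraries. The signed test statistic, a score, and the p-values and q-values are those of the authors' deposited table, and "called" means a q-value under 0.05. Values per library are not in the columns used, so no test across libraries, no SD and no counting interval could be computed, and the depth behind a value is unknown.

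From the FPKM columns the rule, the ratio of d1 over WT (log2, no pseudocount unless stated), sums, and shares by level and chromosome were computed (Python 3.11.15, pandas 2.3.3, numpy 2.4.6). Of 35667 rows, 61 identifiers occurred on more than 1 row, and the row with the highest WT level was kept. None (0) of the reduced loci had a repeated identifier. Chromosome and order were read from identifiers. The rule and the neighbour search were checked on simulated data. The named loci were chosen by a rule: the highest WT level, and the lowest ratio above 0 in d1. Planned lists of gene functions and cell type markers relied on descriptions, which the identifiers could not be matched to, and were not used. The loci and lists were chosen with earlier results of these data known.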

Additional observations from a re-analysis of the deposited data

How the results depend on the processing

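The number of loci at least 4-fold lower in d1 (244) was 312 with both FPKM sums set equal, 244 after centring on the median of tested rows, 172 with 1 FPKM added to both genotypes and 244 with repeated identifiers left out. It moved with the limits themselves, to 499 with at least 1 FPKM in WT, 159 with at least 10 FPKM in WT, 882 at 2-fold and 97 at 8-fold. Setting the sums equal lowers each log2 ratio by 0.27. Of the 230 calls, 223 held at a q-value under 0.01 (7.86% of tested rows were then called lower) and 224 with Benjamini-Hochberg adjustment recomputed from the deposited p-values (9.17%). In d1, 54 loci were under 1 FPKM and 6 under 0.1 FPKM. The 83 loci with a reduced neighbour within 5 loci were 68 for the next locus only, 86 within 10 loci and 51 without in-between numbers, the last of these chosen after seeing the data. Ratios at d1 levels near 0 are limited by a depth that is unknown. No paired analysis was possible because each genotype has a single combined level. For the same reason leaving out a replicate, the replicate block and other count normalizations were not run, and neither were the description lists, for want of descriptions.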
